A study of Oryctolagus cuniculus with 4 samples.

Results

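The cells described here are the SELP- and SELE-carrying endothelial cells of the rabbit bladder mucosa, a venous-like class of 2700 cells among the 21945 cells kept from 4 single-cell libraries. A cell was kept with at least 500 unique molecular identifiers (UMIs, each standing for 1 captured RNA molecule), at least 200 detected genes and at most 15% of its UMIs from 13 mitochondrial protein genes. It counted as a blood endothelial cell when it held UMIs of at least 3 of the 8 genes VWF, PECAM1, CDH5, EMCN, KDR, SELP, TM4SF1 and TM4SF18, less than 0.5% of its UMIs from the fibroblast genes DCN and LUM, and no UMI of PTPRC, PROX1 or MZB1, which mark leukocytes, lymphatic endothelium and plasma cells. Of the 5132 cells that passed, a cell was called venous-like when it held at least 2 UMIs of SELP and SELE together, more of these than of the capillary genes KDR and ESM1, and at most 1 UMI of the arterial genes BMX and ATP2A3. The class was thus chosen by measured values, and the levels of these 17 genes are given below as a description with no test.

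Venous endothelium lines the small veins and post-capillary venules, where circulating leukocytes slow down, roll and leave the blood. P-selectin, the product of SELP, is stored with von Willebrand factor in the Weibel-Palade bodies of endothelial cells and reaches the surface within minutes of stimulation, whereas E-selectin, the product of SELE, has to be made anew after inflammatory signals. In the bladder these vessels run in the connective tissue beneath the urothelium, so that a strip of mucosa holds both tissues.

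The libraries came from adult New Zealand rabbits. Normal_1 and Normal_2 were taken from undisturbed bladder mucosa, and Injury_1 and Injury_2 on day 10 after a focal resection of the mucosa. Each was made from a collagenase digest of a piece of mucosa with 3' droplet chemistry. The labels name the tissue urothelium, while the cells described here were chosen for endothelial genes, and 8 urothelial markers summed to 76.0 to 93.0 CPM in them. With 2 rabbits in a group, p-values measure only the spread between these samples.

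The libraries held 5823 to 6884 barcodes and 28745017 to 47881609 UMIs, of which Normal_1 had the fewest of both. Pairs of libraries shared 8 to 13 barcodes, and 1 barcode was venous-like in both Normal_2 and Injury_1. The venous-like cells numbered 853 in Normal_1, 554 in Normal_2, 807 in Injury_1 and 486 in Injury_2. Their summed depth was 5275558, 5041891, 5995387 and 3624291 UMIs in that order, which is the depth behind every level given for them. The median venous-like cell held 5319 UMIs in Normal_1, 8215 in Normal_2, 6819 in Injury_1 and 6709.5 in Injury_2. Their median mitochondrial share was 8.58% and 8.60% in the normal samples and 6.22% and 7.05% in the injured ones. Levels are given as CPM, the counts of the cells summed per sample and scaled to a common total, always in the order Normal_1, Normal_2, Injury_1, Injury_2. They serve to compare samples and classes for 1 gene, not genes with each other.

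Most venous-like cells were far from the edge of the rule. The median cell held 12 UMIs of SELP and SELE together in Normal_1, 15 in Normal_2, 15 in Injury_1 and 11 in Injury_2, and the highest single cell 226, in Normal_2. Both genes were detected in 1728 cells (64%), SELP without SELE in 938 (34.7%) and SELE without SELP in 34 (1.26%). SELP therefore carried most of the membership. Just inside the threshold lay 163 cells (6.04%) with exactly 2 UMIs, and just outside it 253 unassigned cells with 1 UMI and 49 in which the 2 gene pairs tied. KDR and ESM1 were both undetected in 1814 of the venous-like cells (67.2%). Of the 994 cells called capillary-like, which had at least 2 UMIs of KDR and ESM1 and more of these than of SELP and SELE, 149 also held at least 2 UMIs of SELP and SELE, so that the 2 classes grade into each other at this edge.

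SELP stood at 2054, 2510.4, 2071 and 1795 CPM in venous-like cells. In capillary-like cells it was 97.0, 50.7, 123 and 105 CPM. SELE stood at 499.7, 576, 608 and 416 CPM in venous-like cells against 24.8, 20.7, 27.7 and 38.4 CPM in capillary-like cells. The injured samples did not stand apart from the normal ones in either selectin.

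VWF, which carries platelets to damaged vessel wall and forms the body of the Weibel-Palade granule, was at 2171, 2279, 4356 and 3894 CPM. Both injured samples thus lay above both normal samples, with a ratio of the means of 1.85, and capillary-like cells gave 659, 1416, 2192 and 1803 CPM. VWF is one of the genes that admit a cell, and this difference is not tested.

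ADGRG6 encodes an adhesion G-protein-coupled receptor that no step of the rule used. It was at 105, 45.8, 83.6 and 78.6 CPM in venous-like cells, and in capillary-like cells at 2.31, 0.738, 2.51 and 7.68 CPM, which stand on 4, 3, 1 and 6 UMIs. In arterial-like cells, defined by at least 2 UMIs of BMX and ATP2A3, it was at 17.8, 6.54, 11.2 and 19.8 CPM. The lowest venous-like sample, Normal_2, was above the highest sample of either other class.

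Of the genes that admit a cell to the gate, PECAM1, CDH5, EMCN, TM4SF1 and TM4SF18 were lower than in capillary-like cells in every sample. The gate itself favours this direction. SELP counts towards its 3 genes and was detected in 97.5% to 99.4% of venous-like cells. KDR, which also counts, was detected in 68.6% to 89.3% of capillary-like cells, and ESM1 does not count. The part of the gate in these levels was not tested. Of 5 pan-endothelial genes outside the rule, TEK was higher and ROBO4 lower in all 4 samples and the others had no constant direction. PECAM1, an adhesion molecule of endothelial contacts, was at 906, 726, 937 and 746 CPM, and CDH5, the cadherin of endothelial junctions, at 117, 135, 127 and 125 CPM. Capillary-like cells held 197, 214, 199 and 193 CPM of CDH5. The mean of EMCN, a surface sialomucin, was 129 ± 16.6 CPM (SD, n = 4), that of TM4SF1 144 ± 23.7 and that of TM4SF18 241 ± 59.4. The genes used to exclude cells were low: KDR, the main receptor of vascular endothelial growth factor, had a mean of 66.5 CPM against 321 in capillary-like cells, and ESM1, a marker of angiogenic capillaries, 11.7 against 993. BMX and ATP2A3 had means of 0.559 and 1.41 CPM against 129 and 349.5 in arterial-like cells, DCN and LUM had means of 69.4 and 46.7 CPM, and PTPRC, PROX1 and MZB1 were at 0 by the rule.

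**Figure D1:**
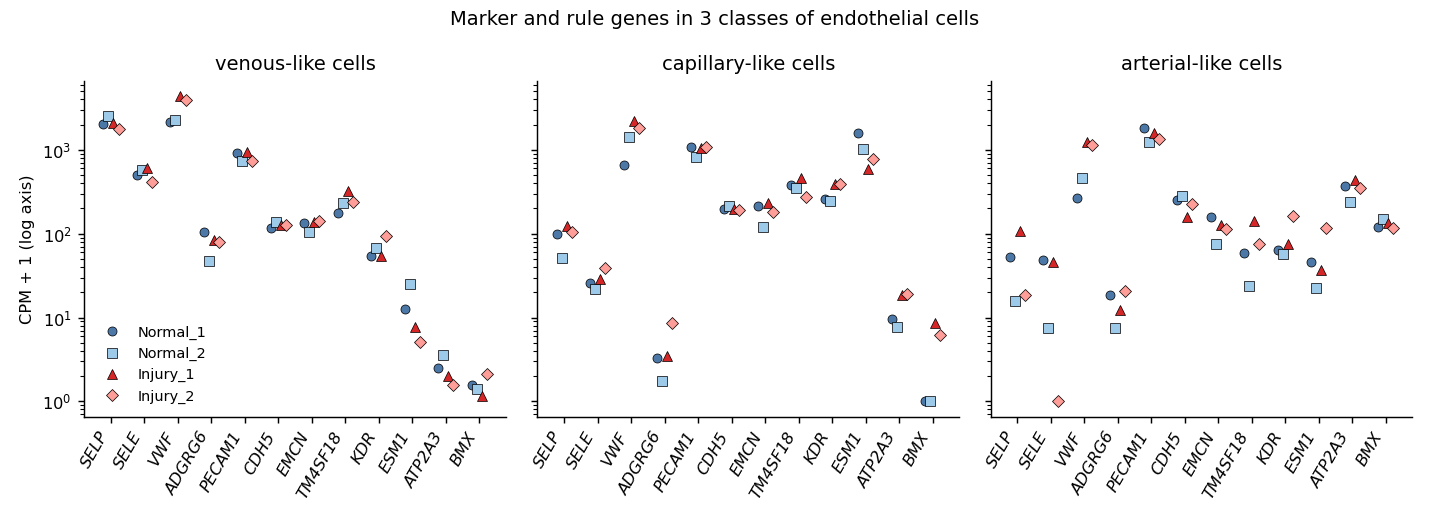
Level of the marker and rule genes in venous-like, capillary-like and arterial-like cells, as CPM + 1 on a log axis, with 1 point per sample. SELP and SELE are high in the venous-like cells, KDR and ESM1 in the capillary-like cells and ATP2A3 and BMX in the arterial-like cells because these genes define the classes, whereas ADGRG6, which no class uses, is at 45.8 CPM or more in every venous-like sample and at 19.8 CPM or less in every sample of the other 2 classes.

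The share of cells with a UMI gave the same picture once each cell was thinned to 2000 UMIs, by expectation over all draws. ADGRG6 was found in 17.7%, 7.64%, 14.2% and 13.4% of venous-like cells and in 0.513%, 0.131%, 0.508% and 0.961% of capillary-like cells. Without thinning the venous-like shares were 37.7%, 24.7%, 36.7% and 35.4%. Fibroblasts, which should lack the gene, had it in 0.0931% to 0.217% of thinned cells. Their median depths of 4980 to 8568 UMIs span those of the venous-like cells. Fibroblasts were cells outside the gate with at least 1% of UMIs from DCN and LUM. They held no UMI of PTPRC, PECAM1, CDH5, EMCN or TM4SF18. That rule leaves out cells with stray endothelial RNA, so low shares of endothelial genes in fibroblasts are partly set by it. VWF was found in 92.3% to 98.5% of thinned venous-like cells and in 1.33% to 2.75% of fibroblasts. Thinning left out 6, 8, 4 and 5 venous-like cells.

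Of the venous identity list of 14 genes, 8 carried a symbol in the files. NR2F2, ACKR1 and PLVAP, which are common markers of veins, did not and were not analysed here. Among the 5 with a mean of at least 10 CPM in 1 of the 2 classes, 4 were higher in venous-like than in capillary-like cells in all 4 samples, where the same held for 13.0% of the 4845 genes at that level. These were ADGRG6, VCAM1, IL1R1 and LIFR. ADGRG6 and IL1R1 reached that mean in venous-like cells only, so the limit itself favoured counting them as higher. ADGRG6 is also a marker listed for the class, and the list was chosen with earlier results of these data known. The count is thus a description and no support for the name of the class. LIFR, the receptor of leukemia inhibitory factor, was at 111, 59.7, 70.2 and 70.1 CPM against 80.8, 43.8, 35.2 and 39.7 CPM. IL1R1, the receptor of interleukin-1, was at 13.5, 7.34, 20.02 and 15.5 CPM against 0.577, 1.72, 0 and 1.28 CPM, and fibroblasts held 18.1 to 51.7 CPM of it. NRP2, a co-receptor for vascular growth factors and semaphorins, had overlapping values in the classes, with means of 57.0 and 49.2 CPM. EPHB4, a receptor that guides venous fate in the embryo, was barely detected, at 3.41, 2.58, 3.84 and 4.69 CPM. It was found in 0.621% to 1.02% of thinned venous-like cells and in 0.332% to 0.916% of fibroblasts, which is read as background. Of the 4 markers listed for the class, all were higher in it than in capillary-like cells in every sample. For SELP and SELE the rule fixed this outcome, and VWF admits cells to the gate. Only ADGRG6 stood outside the rule.

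Venous-like and capillary-like cells came from the same libraries, and the rule separates them, so that the differences between them are described with no test. Differences are on the scale of log2(CPM + 10), which understates those of low genes. The median over the 4845 genes was -0.11, with 13.0% higher and 33.0% lower in venous-like cells in all 4 samples.

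Among genes of leukocyte rolling and adhesion other than the selectins, VCAM1, the ligand of the leukocyte integrin VLA-4, separated venous-like from capillary-like cells. It was at 462, 372, 1113 and 461 CPM against 7.51, 44.0, 206 and 56.3 CPM in capillary-like cells, and was thus higher in every sample. VCAM1 was also found in fibroblasts, at 246, 193, 636 and 322 CPM. ICAM2, which endothelial cells carry constitutively for leukocyte integrins, was at 466, 502, 553 and 454 CPM against 374, 599.9, 556 and 560.4 CPM, with no constant direction. CD34, a mucin-like protein that L-selectin can bind, was lower in venous-like cells in all 4 samples, at 439, 631, 506 and 584 CPM against 723, 736, 888 and 777 CPM. JAM2, a junctional adhesion molecule, averaged 103 and 113 CPM in the 2 classes.

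Of 6 genes of the Weibel-Palade body that the rule did not use, VAMP8 and SYTL4, both parts of the machinery of granule fusion, were higher in venous-like cells in all 4 samples and EDN1, the vasoconstrictor endothelin-1, was lower. EDN1 was at 176, 46.4, 138 and 108 CPM against 180.1, 80.9, 272 and 238 CPM. SYTL4 was at 36.0, 24.4, 26.2 and 26.2 CPM against 26.6, 14.0, 25.1 and 25.6 CPM, so that the difference was under 2 CPM in both injured samples. CXCL8, a neutrophil chemoattractant that the granules can store, was at 410.4, 1163, 2175 and 903 CPM against 203, 1201, 1289.8 and 558 CPM.

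Chemokines and cytokines were among the groups that leaned to the venous side. Of 9 genes at sufficient level, 5 were higher in venous-like cells in all 4 samples and none was lower in all 4, with a median difference of 0.72 on the log2 scale. CCL2, which draws monocytes, was at 1002, 1013, 3455 and 1759 CPM against 223, 523, 797 and 709 CPM. CXCL9, CXCL10 and CXCL11 share a receptor on activated T cells. CXCL10 was at 114, 15.9, 231 and 38.4 CPM against 26.0, 4.43, 93.0 and 5.12 CPM, with Injury_1 the highest and Normal_2 the lowest sample. CXCL11 was at 56.5, 2.38, 199 and 17.9 CPM against 1.15, 1.72, 37.7 and 0 CPM.

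CSF3, the growth factor of granulocytes, was nearly absent from capillary-like cells, and was chosen for mention after its values had been seen. Venous-like cells held 33.7, 36.9, 36.5 and 21.5 CPM, on 178, 186, 219 and 78 UMIs, and capillary-like cells 0.577, 0.738, 0 and 0 CPM, on 1, 3, 0 and 0 UMIs. It was found in 5.94%, 5.41%, 5.62% and 3.47% of thinned venous-like cells and in at most 0.0780% of fibroblasts. The 4 venous-like samples were close to each other, with a mean of 32.2 ± 7.24 CPM (SD, n = 4).

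Of 8 genes of the NF-kappa-B response, the pathway through which inflammatory signals switch on E-selectin and VCAM-1, 4 were higher in venous-like cells in all samples and none was lower in all. NFKBIA, the inhibitor that the pathway induces against itself, was at 5568, 4162, 8182 and 5365 CPM against 2439, 2957, 5411 and 3516 CPM. NFKBIZ, a nuclear relative of that inhibitor, was at 702, 339, 843 and 633 CPM against 157, 136, 369.6 and 316 CPM. IRF1 and REL showed no constant direction, with means of 192 and 121 CPM in venous-like cells and 201 and 116 CPM in capillary-like cells.

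Receptors of inflammatory signals were higher in venous-like cells in all 4 samples for 5 of 8 genes and lower for 1, IL13RA1, a chain of the interleukin-13 receptor. IL6ST, the signalling chain shared by the receptors of interleukin-6 and its relatives, was at 900.0, 677, 786 and 816 CPM against 608, 392, 324 and 334 CPM. OSMR, the receptor of oncostatin M, averaged 43.8 and 27.2 CPM and IFNGR1, a chain of the interferon-gamma receptor, 61.0 and 48.5 CPM.

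Of 8 genes of coagulation and fibrinolysis, 2 were higher and 3 lower in venous-like cells in all samples. Over all 4845 genes, 13.0% were higher and 33.0% lower, so the counts are not read as a pattern of coagulation. The 2 higher genes were TFPI and PROCR. TFPI, which blocks the tissue factor pathway, was at 201, 128, 168 and 193 CPM against 80.8, 72.3, 47.8 and 109 CPM, and fibroblasts held 201 to 343 CPM of it. PROCR, the endothelial receptor of protein C, was at 28.6, 33.3, 30.5 and 25.7 CPM against 8.08, 6.64, 5.03 and 19.2 CPM. The anticoagulant cofactor PROS1, the matrix protein THBS1 and the plasminogen activator PLAU were lower in all 4 samples. PLAU was at 144, 147, 288 and 336 CPM against 319.8, 308, 440.0 and 734 CPM.

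Genes of vascular tone divided, with 3 of 10 higher and 6 lower in venous-like cells in all 4 samples. PTGS2, the inducible enzyme of prostaglandin synthesis, was at 1239.7, 558, 1767 and 800.4 CPM against 185, 229.7, 445 and 293 CPM. Fibroblasts held far more of it, at 5936, 5380.1, 8453 and 4524 CPM, and in Normal_2 arterial-like cells, at 590.03 CPM, were above venous-like cells. RAMP2, a partner of the adrenomedullin receptor, was at 3839, 2953, 2875 and 2466 CPM against 1681, 2129, 1674 and 1690.2 CPM. NPR1, a receptor of natriuretic peptides, was the other higher gene. The lower ones were EDN1, ECE1, EDNRB, ADM, ACE and NOS3, of which EDN1, ECE1 and EDNRB are the ligand, the processing enzyme and a receptor of the endothelin system. NOS3, endothelial nitric oxide synthase, averaged 71.9 CPM in venous-like, 104 CPM in capillary-like and 212 CPM in arterial-like cells.

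Basement membrane and matrix genes leaned away from the venous side. Of 17 genes, 12 were lower in venous-like cells in all 4 samples and 2 higher, with a median difference of -1.01. The type IV collagen chain COL4A1 was at 258, 432, 346 and 484 CPM against 899, 879, 1038 and 1320.4 CPM, and COL4A2 at 337, 816, 743 and 969 CPM against 1091, 1560.2, 2275 and 2281 CPM. The laminin chains LAMB1 and LAMA4, the nidogens NID1 and NID2 and the perlecan gene HSPG2 were among the other lower genes. The 2 higher ones were the protease ADAMTS4 and the protease inhibitor TIMP1. TIMP1 was at 3509, 5205, 4714 and 3804 CPM against 3064, 4469.9, 2471 and 1598 CPM.

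Notch, BMP and TGF-beta genes were lower in all 4 samples for 6 of 13 genes and higher for none, and those of the VEGF and angiopoietin axis lower for 5 of 9 and higher for 1, TEK. TEK, the receptor of the angiopoietins, was at 118, 103, 129 and 121 CPM against 65.2, 56.8, 85.5 and 66.5 CPM. DLL4, a Notch ligand of arterial and tip cells, was at 6.07, 14.7, 14.0 and 9.93 CPM against 38.1, 44.0, 45.3 and 43.5 CPM. JAG1, another Notch ligand, had no constant direction, with means of 341 and 238 CPM. Of the 5 arterial markers outside the rule, 4 were lower in venous-like than in capillary-like cells in every sample, among them EFNB2, the ephrin of arteries, with means of 26.6 and 77.0 CPM, and HEY1, a target of Notch, with means of 79.6 and 158 CPM.

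The counts of the remaining lists can be read against the 13.0% of genes higher and 33.0% lower in all samples. For junction genes, 1 of 6 was higher and 2 lower in all samples, for glycolysis and hypoxia 0 of 8 and 3, for the immediate-early and stress response 3 of 14 and 1, and for interferon and antigen presentation 2 of 8 and 0. Of 5 cell cycle genes, PCNA and TOP2A were lower in all 4 samples, with means of 195 and 38.3 CPM in venous-like and 245 and 45.2 CPM in capillary-like cells. Of the capillary markers outside the rule, SPARC and BTNL9 were lower in all samples. LYVE1, a hyaluronan receptor best known from lymphatic vessels, was higher in venous-like cells in all samples, at 101, 60.7, 115 and 139 CPM against 41.6, 18.9, 52.8 and 23.0 CPM.

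By a rule on the smallest difference over the 4 samples, the 12 genes highest in venous-like cells were ADH6, VCAM1, ADGRG6, NT5E, CHP2, MED24, FGL2, DOCK11, PRCP, PDK4, SELENOM and ENPP3. ADH6, an alcohol dehydrogenase, was at 1179.8, 189, 599 and 435 CPM against 35.2, 2.95, 7.54 and 7.68 CPM. NT5E, which makes adenosine from AMP at the cell surface, was at 131, 41.7, 108 and 62.4 CPM, on 691, 210, 649 and 226 UMIs, while capillary-like cells held 3, 3, 0 and 1 UMIs of it. In both genes Normal_1 was the highest and Normal_2 the lowest sample.

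ADH6 and NT5E were abundant in fibroblasts too, which held 1097, 651, 234 and 256 CPM of ADH6 and 320.1, 235, 106 and 59.0 CPM of NT5E. Venous-like cells lay below fibroblasts in Normal_2 and above them in the other 3 samples for ADH6, and above them only in Injury_1 and Injury_2 for NT5E. The part of fibroblast RNA in these values was not tested. CHP2, a regulator of sodium-proton exchange, was at 257, 172, 236 and 127 CPM against 13.9, 15.7, 25.1 and 24.3 CPM, and ENPP3, an enzyme that cleaves extracellular nucleotides, at 369, 247, 267 and 282 CPM against 50.8, 19.4, 17.6 and 106 CPM. Fibroblasts held under 1 CPM of either. PRCP, a carboxypeptidase that cleaves angiotensin II, averaged 148 CPM in venous-like, 38.9 CPM in capillary-like and 9.85 CPM in arterial-like cells. DOCK11, an activator of the small GTPase CDC42, was at 83.8, 54.3, 50.7 and 31.5 CPM against 4.62, 0.738, 0 and 2.56 CPM. PDK4, a kinase that restrains pyruvate oxidation, averaged 395 against 95.8 CPM, SELENOM, a selenoprotein of the endoplasmic reticulum, 234 against 70.2 CPM, with 306 to 536 CPM in fibroblasts, and MED24, a subunit of the Mediator complex, 107 against 13.0 CPM.

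The 12 lowest were CD300LG, UNC5B, SPARCL1, NES, EDNRB, LAMB1, GPM6A, LAYN, CXCR4, VEGFA, C1orf54 and TIMP3. CD300LG, an adhesion receptor of microvessels, was at 8.53, 14.3, 19.7 and 15.5 CPM against 132, 122, 173 and 128 CPM, and arterial-like cells had 132 ± 67.2 CPM (SD, n = 4). UNC5B, a netrin receptor of tip and arterial cells, was at 21.2, 26.8, 11.8 and 11.9 CPM against 165, 127, 209 and 199.6 CPM, and arterial-like cells had 178 ± 114 CPM. In both genes the venous-like cells were the class that differed. SPARCL1, a matrix-binding protein, averaged 255 CPM against 1296 in capillary-like and 321 in arterial-like cells, and LAMB1 95.1 against 375 and 111, so that in these the capillary-like cells stood apart. EDNRB was at 85.9, 82.1, 68.9 and 86.1 CPM against 434, 266, 241 and 271 CPM. CXCR4, the receptor of CXCL12, averaged 12.8 against 71.5 CPM, and VEGFA 11.5 against 50.7 CPM.

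**Figure D2:**
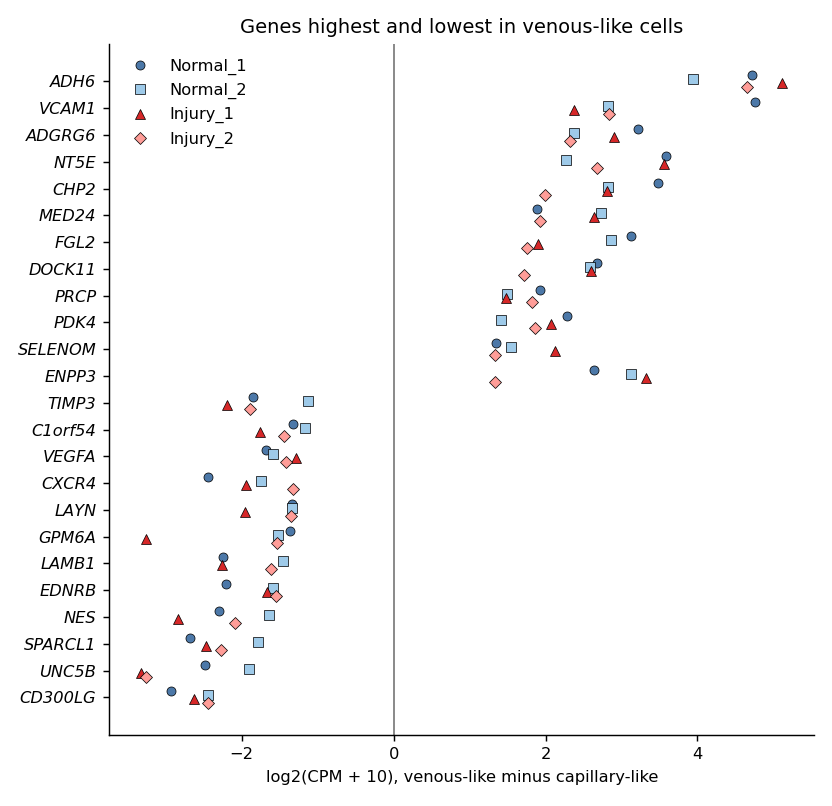
Difference in log2(CPM + 10) between venous-like and capillary-like cells of the same sample for the 12 genes highest and the 12 lowest in venous-like cells, with 1 point per sample. All 4 points of each gene lie on 1 side of 0 because the genes were picked for that, with ADH6 at 3.94 to 5.12 and UNC5B at -3.32 to -1.90.

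RNA of other cell types was low but unequal between the samples. The summed level of 6 fibroblast markers in venous-like cells was 157, 1421, 478 and 578 CPM, and COL1A1 alone was at 10.8, 227, 40.0 and 54.4 CPM, so Normal_2 stood apart from the other 3. Capillary-like cells of Normal_2 had 2059 CPM for the same list. Of 14 immune and plasma cell markers the sum was 362, 612, 279 and 186 CPM, of which S100A9 alone gave 349, 606, 246 and 145 CPM, with PTPRC and MZB1 at 0 by the rule. The 8 urothelial markers, whose sum is given above, were led by KRT15 and KRT18, and the 8 pericyte and smooth muscle markers summed to 44.2 to 185 CPM, highest in Normal_2, and glial markers to at most 1.00 CPM. The part of such RNA in the results below was not tested.

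The first comparison of conditions concerned the number of these cells. Venous-like cells made up 51.6% of the blood endothelial cells of Normal_1 (95% Wilson interval 49.2% to 54.0%), 34.9% of Normal_2 (32.6% to 37.3%), 72.4% of Injury_1 (69.7% to 74.98%) and 62.5% of Injury_2 (59.0% to 65.8%). The intervals cover counting error only. Both injured samples lay above both normal samples, with means of 67.5% ± 7.05 and 43.3% ± 11.8 (SD, n = 2 each), a difference of 24.2 percentage points. The 2-sided exact permutation test gave p = 0.3333, the smallest value that 2 samples against 2 can give, so the design cannot reach the threshold of 0.05. Capillary-like cells went the other way, with 19.5% and 31.2% in the normal and 5.83% and 14.4% in the injured samples, and arterial-like cells made up 4.22% to 6.81% with no order by condition.

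A larger share of blood endothelial cells was not a larger share of all cells. Venous-like cells were 19.8% and 9.19% of all kept cells in the normal samples and 13.3% and 8.79% in the injured ones, with means of 14.5% and 11.03% and overlapping groups (2-sided exact permutation p = 0.667, n = 2 each). The mean for the normal samples rested on Normal_1: without it the difference turned from -3.47 to 1.84 percentage points. Blood endothelial cells of every class together averaged 32.3% of all kept cells in the normal samples and 16.2% in the injured ones, without overlap (2-sided exact permutation p = 0.3333, n = 2 each). How many of each cell type a digest releases and how many are present in the tissue cannot be told apart here, nor can fewer cells that carry SELP from less SELP per cell.

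**Figure D3:**
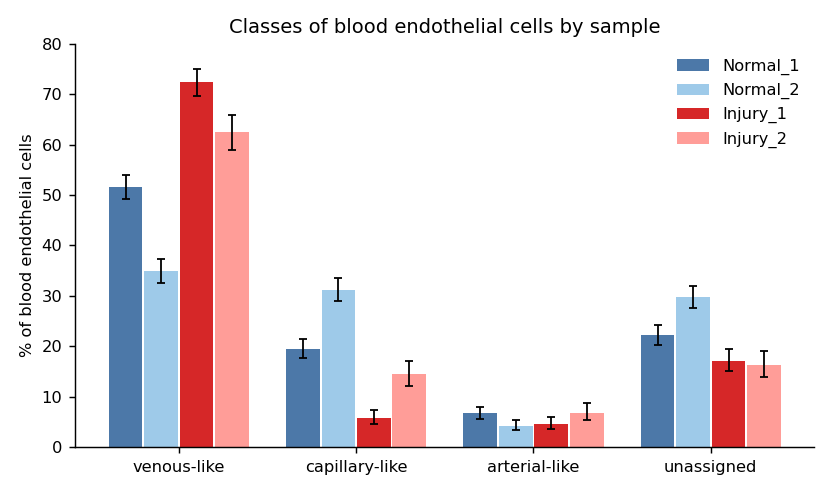
Share of each class among the blood endothelial cells of a sample in %, with 1 bar per sample and 95% Wilson intervals, which cover counting error only. The venous-like bars of the injured samples, at 72.4% and 62.5%, are above those of the normal samples, at 51.6% and 34.9%, and the capillary-like bars are in the opposite order.

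SELE, which admits no cell to the blood endothelial gate, could be tested over all cells of that gate. Its level there was 291, 241, 476 and 282 CPM, so that Injury_2 lay between the 2 normal samples. The log2 difference was 0.46 with a standard error (SE) of 0.30 (edgeR quasi-likelihood test, adjusted p = 0.848). ADGRG6 was at 64.6, 19.5, 66.5 and 58.2 CPM, with a log2 difference of 0.57 (SE 0.49, adjusted p = 0.892), and without Normal_2 it was -0.0040. SELP, a gene of the gate, was at 1185, 1036, 1618 and 1204 CPM. Both injured samples thus lay above both normal ones, which was not tested. ESM1, which the gate does not use, was at 307, 343, 38.2 and 124 CPM, with both injured samples below both normal ones and a log2 difference of -2.06 (SE 0.55), which did not pass in edgeR (adjusted p = 0.594) and passed in DESeq2 (adjusted p = 0.0103). Of 7542 genes, edgeR called 0, DESeq2 called 51 (0.676%), and 515 (6.83%) had an unadjusted p under 0.05 in edgeR. Both injured samples lay above both normal ones for 22.4% of these genes and below them for 14.0%.

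Within venous-like cells, injured samples were compared with normal ones over 6760 genes, and the edgeR test called none (0%) at an adjusted p under 0.05. There were 330 genes (4.88%) with an unadjusted p under 0.05, and DESeq2 called 24 (0.355%). Both injured samples lay above both normal samples for 21.1% of the genes and below them for 12.9%. In simulated counts with the spread of these samples the edgeR test recovered 76.5% of genes changed 4-fold and 9.18% of genes changed 2-fold, so that a 2-fold change was mostly out of its reach. No gene of any list passed, and the values below are described as they stand.

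ADGRG6 had a log2 difference of 0.09 (SE 0.36), and its normal samples enclosed both injured ones. VCAM1 was higher in Injury_1 than in the other 3 samples, among which Normal_1 and Injury_2 had nearly the same level, and its log2 difference was 0.87 (SE 0.42, edgeR adjusted p = 0.989). ICAM2, CD34 and JAM2 had log2 differences of 0.00, -0.04 and -0.04 with SEs of 0.26, 0.31 and 0.25.

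The 11 chemokines and cytokines tested had a median log2 difference of 1.07, against -0.0025 for all genes tested. In 3 of them both injured samples lay above both normal ones, as in 21.1% of all genes tested. CCL2, whose values are given above, differed by 1.32 (SE 0.36, edgeR adjusted p = 0.732, DESeq2 0.113), and was 2.59 times as high in the mean of the injured samples. The share of thinned venous-like cells with CCL2 overlapped between the conditions, at 43.7%, 27.4%, 51.9% and 39.1%. In fibroblasts CCL2 was at 182, 244, 1220.1 and 874 CPM, also with both injured samples above both normal ones. CXCL8 differed by 0.87 (SE 0.62), with Normal_2 above Injury_2, and was in fibroblasts at 117, 222, 2183 and 1699 CPM. The part of RNA from fibroblasts in these values was not tested. IL1A, an alarm cytokine of the interleukin-1 family, was at 57.8, 102, 269 and 135 CPM and differed by 1.27 (SE 0.45, edgeR adjusted p = 0.960). CXCL9, CXCL10 and CXCL11 were highest in Injury_1, at 170.0, 231 and 199 CPM, whereas Injury_2 had 12.1, 38.4 and 17.9 CPM and lay below Normal_1 in each. CSF3 differed by -0.33 (SE 0.32).

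Of 10 tested genes of interferon response and antigen presentation, 4 had both injured samples above both normal ones, against 21.1% of all genes tested. The median log2 difference of the 10 was 0.46. Among the most abundant, B2M, the light chain of class I molecules, differed by 0.19 (SE 0.31) and GBP1, a guanylate-binding protein induced by interferon, by 0.39 (SE 0.37). The class II genes HLA-DRA and CD74, which were looked at after their values had been seen, were low: HLA-DRA was at 4.55, 1.39, 14.3 and 19.6 CPM, and CD74 at 3.79, 2.38, 8.17 and 14.6 CPM. HLA-DRA differed by 2.47 (SE 0.52, edgeR adjusted p = 0.543, DESeq2 0.0233). It was found in 0.271% to 1.96% of thinned venous-like cells and in 0.443% to 2.48% of fibroblasts, and a share in this range is read as background.

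For the NF-kappa-B response the median log2 difference of 8 genes was 0.27, for 10 receptors of inflammatory signals -0.24, for 8 genes of coagulation 0.29 and for 10 genes of vascular tone -0.0088. Basement membrane and matrix genes had a median of 0.37 over 17 genes, 6 of them with both injured samples above both normal ones and 3 below. Of the coagulation genes 5 lay above and 1 below. Over all genes tested, 21.1% lay above and 12.9% below. PLAU differed by 1.05 (SE 0.24, edgeR adjusted p = 0.615). The medians were 0.16 over 14 genes for Notch, BMP and TGF-beta signalling, 0.19 over 11 for the VEGF and angiopoietin axis, -0.016 over 4 for adhesion, -0.0015 over 6 for the Weibel-Palade body, -0.04 over 7 for junctions, 0.30 over 14 for the immediate-early and stress response, -0.10 over 8 for glycolysis and hypoxia and -0.29 over 6 for the cell cycle. None of these lists had a median as far from 0 as the chemokines. The identity lists gave 0.35 over 8 genes for venous, 0.14 over 5 for arterial, 0.95 over 3 for capillary and 0.19 over 5 for pan-endothelial genes. Lists of other cell types gave -1.20 over 4 fibroblast genes, -0.94 over 6 pericyte and smooth muscle genes, -0.13 over 4 urothelial genes and 1.83 over 3 immune genes, and 1 lymphatic gene gave 0.62. No glial, red cell or platelet gene was high enough to be tested.

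The genes nearest to a call were chosen for mention after their values had been seen. HAPLN1, which links hyaluronan to proteoglycans, was at 1.14, 1.59, 28.4 and 36.1 CPM in venous-like cells, on 6, 8, 170 and 131 UMIs. Both injured samples were far above both normal ones, with a log2 difference of 4.49 (SE 0.39), which missed the threshold in edgeR (adjusted p = 0.0944) and passed in DESeq2 (adjusted p = 1.96e-10), and over its alternatives the adjusted p ranged from 4.74e-19 to 0.174. Thinned to 2000 UMIs, 0.241%, 0.406%, 4.75% and 6.04% of venous-like cells held it, and 0.4005% to 0.943% of fibroblasts. Capillary-like cells of the injured samples held it too, at 32.7 and 16.6 CPM against 0.577 and 0.492 CPM.

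ST3GAL6 encodes a sialyltransferase that takes part in making selectin ligands. It was at 7.77, 10.7, 52.2 and 49.7 CPM, with a log2 difference of 2.40 (SE 0.31, edgeR adjusted p = 0.222, DESeq2 2.75e-05, range over the alternatives 1.16e-08 to 0.667). FABP5, a fatty acid-binding protein, was at 214, 788, 1975 and 2144 CPM, with a log2 difference of 1.94 (SE 0.62, edgeR adjusted p = 0.897, DESeq2 0.0451). CRYAB, a small heat shock protein, went the other way, at 938, 596, 284 and 260.2 CPM, with a log2 difference of -1.52 (SE 0.28, edgeR adjusted p = 0.530, DESeq2 0.00265). Fibroblasts held 5768, 4846, 2032 and 2559.8 CPM of CRYAB, in the same order by condition. In all 3 genes the groups did not overlap. Their injury difference in venous-like minus that in capillary-like cells did not pass in edgeR. It was 0.10 (SE 0.35) for ST3GAL6, -1.34 (SE 0.37) for FABP5 and -0.14 (SE 0.16) for CRYAB. FABP5 was found in 7.07%, 7.08%, 40.1% and 37.1% of thinned capillary-like cells.

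**Figure D4:**
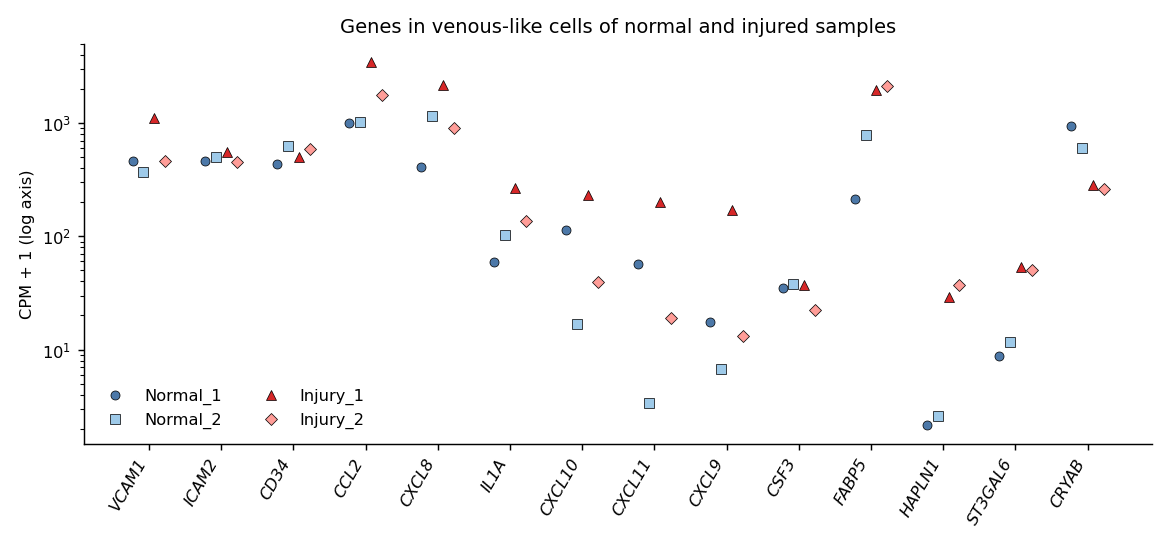
Level of adhesion, cytokine and other genes named in the text in venous-like cells, as CPM + 1 on a log axis, with 1 point per sample. ICAM2 and CD34 show no order by condition, CXCL9, CXCL10 and CXCL11 are highest in Injury_1, and HAPLN1, ST3GAL6 and FABP5 are higher and CRYAB lower in both injured samples than in both normal ones, none of them past the edgeR threshold.

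Whether injury went with a different change in venous-like than in capillary-like cells was tested with the rabbit as a block, over 6964 genes. The edgeR test called 18 genes (0.258%), 9 with a more positive difference in venous-like cells and 9 with a more negative one, and DESeq2 called 12 (0.172%). An unadjusted p under 0.05 was found for 669 genes (9.61%). With scaling by library size, which lowered the median over all genes by 0.13, edgeR called 4 and 10. Of the 18, 15 carry a symbol. The capillary-like sums of the injured samples rested on 65 and 112 cells, so the low genes among the calls have few UMIs there. Without Normal_1 the test called 25 genes, 12 of them among the 18, without Normal_2 8 (4 shared), without Injury_1 13 (7 shared) and without Injury_2 49 (14 shared).

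In 1 group of these genes the level was lower in capillary-like cells of the injured than of the normal samples, and less so or not at all in venous-like cells. TIMP1 was at 3509, 5205, 4714 and 3804 CPM in venous-like and 3064, 4469.9, 2471 and 1598 CPM in capillary-like cells, a difference between the classes of 1.02 (SE 0.12, edgeR adjusted p = 0.0044). AKAP12, a scaffold protein of cyclic AMP signalling, was at 849.8, 574, 689 and 706 CPM in venous-like and 1516, 1156, 636 and 688 CPM in capillary-like cells, a difference of 1.13 (SE 0.15, edgeR adjusted p = 0.00485). PRSS23, a serine protease of the vessel wall, was higher in both injured samples in venous-like cells (301, 239, 388 and 420.2 CPM) and lower in both in capillary-like cells (334, 307, 206 and 197 CPM), a difference of 1.40 (SE 0.18, edgeR adjusted p = 0.0044).

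MGP, a matrix protein that restrains calcification and BMP signalling, gave the smallest p of all, with a difference of 1.56 (SE 0.15, edgeR adjusted p = 0.000855). It was at 754, 999, 968 and 403 CPM in venous-like and 1100.4, 1275, 533 and 188 CPM in capillary-like cells. MGP was far higher in fibroblasts, at 35411, 32254, 11784 and 10989 CPM, lower there in both injured samples, and the part of fibroblast RNA in its values was not tested.

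TXN, HMOX1, GBP1 and F3 were the other named genes with a more positive difference in venous-like cells. TXN, thioredoxin, had a difference of 0.79 (SE 0.13) and GBP1 one of 0.88 (SE 0.15), both with an edgeR adjusted p of 0.0307, and lost their calls under 5 and 4 of 14 alternatives. HMOX1, the enzyme that breaks down heme, was at 9.67, 19.4, 21.2 and 34.2 CPM in venous-like and 17.3, 37.9, 12.6 and 12.8 CPM in capillary-like cells. F3, tissue factor, which starts coagulation, was at 28.2, 31.3, 48.7 and 44.7 CPM in venous-like and 44.5, 51.2, 32.7 and 16.6 CPM in capillary-like cells. F3 and HMOX1 were opposite in the 2 classes, with differences of 1.84 (SE 0.32) and 2.23 (SE 0.38), and stood on 13 and 13, and on 5 and 10, UMIs in the injured capillary-like samples. Their calls were lost under 8 and 6 of the alternatives, and fibroblasts held 138 to 420.0 CPM of F3.

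In the other group the level in capillary-like cells was higher in the injured than in the normal samples, and in venous-like cells less so or lower. VEGFC, a growth factor of lymphatic vessels, was at 10.2, 26.2, 40.7 and 31.5 CPM in venous-like and 2.31, 2.71, 42.7 and 37.1 CPM in capillary-like cells, a difference of -3.01 (SE 0.44, edgeR adjusted p = 0.00775). FGL2, a prothrombinase and regulator of immune cells that was among the 12 genes highest in venous-like cells, was at 112, 80.5, 149 and 128 CPM in them and at 4.04, 2.46, 32.7 and 30.7 CPM in capillary-like cells, a difference of -2.68 (SE 0.36, edgeR adjusted p = 0.00522). In normal capillary-like cells VEGFC stood on 4 and 11 and FGL2 on 7 and 10 UMIs.

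BTG2, an antiproliferative gene induced by stress, was at 78.5, 207, 228 and 243 CPM in venous-like and 36.9, 180.3, 493 and 458 CPM in capillary-like cells, a difference of -1.42 (SE 0.24, edgeR adjusted p = 0.0307). ID1, a target of BMP signalling, was lower in both injured samples in venous-like cells, at 439, 356, 196 and 317 CPM, and higher in both in capillary-like cells, at 301, 380.3, 541 and 595 CPM, a difference of -1.26 (SE 0.22, edgeR adjusted p = 0.0335). HES1, a target of Notch, TPM1, a tropomyosin, and CD200, an inhibitory ligand of myeloid cells, also passed, with differences of -0.84, -1.07 and -1.61, and lost their calls under 5, 6 and 5 of 14 alternatives. HES1 was at 291, 274, 412 and 366 CPM in venous-like and 329.6, 297, 930.3 and 768 CPM in capillary-like cells. Of the lists, HES1 and ID1 belong to Notch, BMP and TGF-beta signalling, and VEGFC, TIMP1, HMOX1, F3 and GBP1 each to another.

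**Figure D5:**
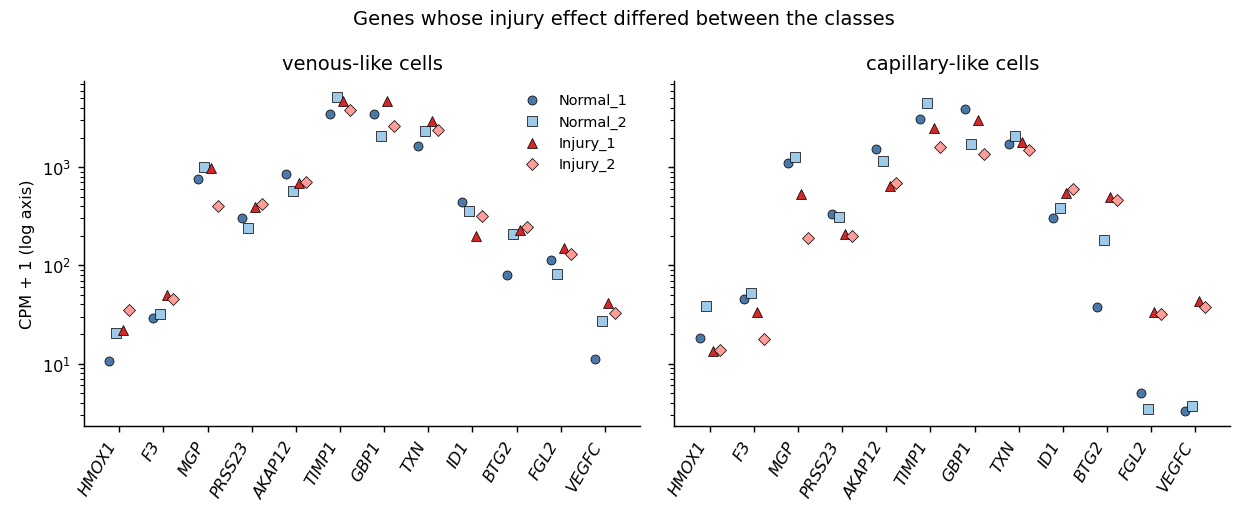
Level of the 12 named genes whose injury effect differed between the classes, in venous-like (left) and capillary-like (right) cells, as CPM + 1 on a log axis, with 1 point per sample and genes ordered from the most positive to the most negative difference. From HMOX1 to TXN the injured samples are lower in capillary-like cells relative to the normal ones than they are in venous-like cells, and from ID1 to VEGFC they are higher.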

How the data were processed

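The authors deposited, per sample, whole-number UMI counts per gene and barcode without normalization, written by Cell Ranger (6.0.1 in the matrix headers) after its own choice of barcodes. The genome build is not given in the sources used here. The files hold 18475 genes, of which 9771 carry a symbol. The limits on UMIs, genes and mitochondrial share that the study states were applied here. Cell names were not taken from the study. Capillary-like, arterial-like and lymphatic-like cells were defined by rules written for this comparison, the last as cells of the gate with PROX1.

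The members and gene lists were chosen with earlier results of these data known. Counts were summed per sample and class (3624291 to 5995387 UMIs for venous-like cells), so that the rabbit was the replicate, and compared in edgeR 4.0.16 (R 4.3.3) by its quasi-likelihood F test after filterByExpr and TMM scaling, with Benjamini-Hochberg adjustment over all genes and a threshold of 0.05. DESeq2 1.42.0 was an alternative. The 17 genes of the rule were left out of these tests in venous-like cells, and 13 of the gate in all blood endothelial cells. Genes were named by rule: rule genes and markers, list members that passed or else up to 4 with the highest mean CPM, the 12 genes highest and 12 lowest against capillary-like cells with a mean of at least 50 CPM, and up to 12 genes with a symbol and at least 20 CPM past the threshold in the test of the difference. TPM1 and CD200, which ranked below these 12, were added after their values had been seen. List members outside this rule, among them those higher or lower in all 4 samples, were chosen after their values had been seen.

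Doublets were not removed. Scrublet in scanpy 1.11.5 called 0.255% of the cells of Normal_1, where it had thus not worked, and 1.34% to 2.60% of the others, and the 5% with the highest scores were left out as an alternative. In simulated counts the test of the difference recovered 62.6% of genes changed 4-fold and 30.0% of those changed 2-fold, with 10 false among 102 calls, over 6978 genes, and the test in all blood endothelial cells 81.8% and 9.18%, with 5 false among 95 calls. These simulated counts gave every gene the average spread of genes at its level, so the real recovery can be lower. Python 3.11.15, numpy 2.4.6, scipy 1.17.1, pandas 2.3.3 and matplotlib 3.10.9 were used. The alternatives were other scalings, no filter on low counts, DESeq2, stricter limits on cells, other forms of the venous rule, the replicate number as a block and the leaving out of each sample.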

Additional observations from a re-analysis of the deposited data

Results flagged for a closer look

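For 15 named genes the difference between injured and normal samples was not the same in venous-like as in capillary-like cells, by the test of that difference with the rabbit as a block (edgeR, adjusted over 6964 genes). Each value is the log2 injury difference in venous-like cells minus that in capillary-like cells. The more positive in venous-like cells were HMOX1 at 2.23, F3 at 1.84, MGP at 1.56, PRSS23 at 1.40, AKAP12 at 1.13, TIMP1 at 1.02, GBP1 at 0.88 and TXN at 0.79. The more negative were VEGFC at -3.01, FGL2 at -2.68, CD200 at -1.61, BTG2 at -1.42, ID1 at -1.26, TPM1 at -1.07 and HES1 at -0.84. The other 3 of the 18 genes called carry no symbol. The levels in each sample are given above for all but TXN, GBP1, TPM1 and CD200. GBP1 was at 3451, 2064, 4755 and 2603 CPM in venous-like and 3903, 1722, 3030 and 1372 CPM in capillary-like cells. For GBP1 the conditions overlapped in both classes. TXN was at 1636, 2323, 2967 and 2414 CPM in venous-like and 1716, 2070, 1810 and 1498 CPM in capillary-like cells, and its conditions overlapped in capillary-like cells.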

How the results depend on the processing

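In venous-like cells, edgeR called 0 genes between injured and normal samples under the other scalings, cell limits, doublet removal and forms of the venous rule, but 151 without a filter on low counts, 24 with DESeq2, and 13 to 52 on leaving out a sample (16 without Normal_1, 13 without Normal_2, 23 without Injury_1 and 52 without Injury_2). In all blood endothelial cells it called 0, and 123 without the filter, 51 with DESeq2 and 0 to 9 on leaving out a sample (2 without Normal_2, 5 without Injury_1, 9 without Injury_2). For the difference between the classes the 18 calls became 122 without the filter and 29 with a mitochondrial limit of 10%, lay between 12 and 24 under the other settings with all samples, and between 8 and 49 on leaving out a sample. The cause was not tested. With the replicate number as a block, 4 genes were called in venous-like cells and 53 in all blood endothelial cells. The labels do not say whether same-numbered samples share a rabbit. Their deviations from the group means correlated at only 0.139 in venous-like cells and 0.130 in all blood endothelial cells. With 2 samples per group these deviations mirror each other, so the block is not read as a pairing.

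Of the single genes named, 53 values over the alternatives lost their call in the difference between the classes and 157 kept it. In venous-like cells 20 values gained a call, and in all blood endothelial cells 3. ADGRG6 changed sign in venous-like cells with the rule applied to cells thinned to 2000 UMIs (-0.015) and without Normal_2 (range -0.32 to 0.69 on leaving out a sample), and in all blood endothelial cells without Normal_2 (range -0.0040 to 1.53). The share of venous-like cells among blood endothelial cells stayed higher in injured samples, by 21.5 to 24.8 percentage points under other cell limits and rules and by 15.8 to 32.6 on leaving out a sample. Their share among all kept cells changed sign without Normal_1, to 1.84 points, with a range of -8.77 to 1.84 on leaving out a sample. The 2 samples per group and the 65 and 112 capillary-like cells of the injured samples set the precision.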

Other observations

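Venous-like cells carried S100A9, which neutrophils and monocytes make together with S100A8, with little of that partner. S100A9 was at 349, 606, 246 and 145 CPM in Normal_1, Normal_2, Injury_1 and Injury_2, on 1840, 3057, 1475 and 526 UMIs, and S100A8 at 0.948, 0.595, 6.50 and 0.552 CPM, on 5, 3, 39 and 2 UMIs. Thinned to 2000 UMIs, 24.8%, 30.5%, 17.8% and 14.97% of venous-like cells held S100A9, against 0.839% to 3.72% of capillary-like cells and 0.490% to 2.05% of fibroblasts. In capillary-like cells of Injury_1, the sample where both genes were highest in that class, S100A8 was at 156 and S100A9 at 254 CPM. The venous-like cells of the injured samples lay below those of the normal ones, with a log2 difference of -1.36 (SE 0.42) that did not pass (edgeR adjusted p = 0.852). These genes were chosen after their values had been seen.

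Cells that met the endothelial gate but held PROX1, called lymphatic-like, numbered 36, 23, 48 and 66 in Normal_1, Normal_2, Injury_1 and Injury_2, and 18.8% of those of Injury_1 ranked in the top 5% of their sample by doublet score, against 1.73% of its venous-like cells. In Normal_1, 7.62% of the venous-like cells did so. LYVE1 was found in 15.2%, 9.95%, 17.0% and 19.9% of thinned venous-like cells and in 0.132% to 0.437% of fibroblasts. Venous-like cells hold no UMI of PROX1 by the rule, and whether some of them were lymphatic cells with undetected PROX1 was not tested. Among the other genes that DESeq2 called and edgeR did not in venous-like cells, IBSP, an integrin-binding matrix protein of bone, was at 6.44, 18.4, 0.5004 and 0.552 CPM, and the chemokine CCL19 at 0.1896, 0.397, 8.51 and 8.28 CPM.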
